A study of Mus musculus with 6 samples.

Results

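The MAP kinase phosphatases and Sprouty proteins that switch off growth factor and stress kinase signalling were examined in mouse retina after optic nerve crush (ONC), through 10 genes chosen by symbol, namely Dusp1, Dusp4, Dusp5, Dusp6, Dusp8, Dusp10, Dusp14, Dusp16, Spry2 and Spry4. All 10 were found among the 35485 genes of the deposited tables, and all 10 passed the filter on low values, which kept 13670 genes with a mean RPKM (exon reads scaled for exon length and for the sample's total of reads on genes) above 0.3 in at least one group. The retinas came from wild type C57BL/6 mice of 12 weeks, males according to the methods of the study. In the ONC group the nerve was crushed for 10 seconds at 2 mm behind the globe, and in the sham group it was exposed without being crushed. RNA was taken 2 days after surgery. Each of the 3 ONC and 3 sham samples was a pool of RNA from 6 different retinas, so each group stands for 18 retinas, and the spread between samples is a spread between pools. The tissue was whole retina, in which the ganglion cells injured by the crush are a small part of all cells.

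MAP kinases (ERK, JNK and p38) are switched on by phosphorylation of a threonine and a tyrosine, and the dual specificity phosphatases (DUSPs) known as MAP kinase phosphatases (MKPs) remove both phosphates. Several of them are transcribed in response to the kinases that they inactivate, which closes a negative feedback loop. Sprouty proteins act further up, where they restrain the signal from receptor tyrosine kinases through Ras to ERK, and their transcription is also raised by that signal. In injured neurons the JNK branch carries the axonal damage signal to the nucleus.

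Of the 10 genes, 1 changed between ONC and sham. Dusp1, which encodes the inducible nuclear phosphatase of p38, JNK and ERK, rose 1.49-fold after ONC (95% interval 1.28 to 1.73). No gene of the group fell by the same test. The other 9 genes, the ERK phosphatases Dusp5 and Dusp6 and both Sproutys among them, did not pass the threshold of an adjusted p under 0.1 when exon reads were tested with edgeR (quasi-likelihood). Over all kept genes 6.09% passed that threshold, made up of 2.38% that were higher and 3.72% that were lower in ONC, so that 1 call among 10 genes is close to the background. None of the 10 passed with a fold change above 1.5 as well in this test, as 1.66% of the kept genes did. In a test of the kind the study used, gene by gene on RPKM with q-values, Dusp1 passed both thresholds (log2 fold change 0.70, q = 0.0515, with 3 samples a group and equal variance, over 13670 genes). At an unadjusted p under 0.05, 2 of the 10 passed in edgeR, Dusp1 and Dusp8, beside 16.7% of all kept genes. DESeq2 called Dusp1 alone at an adjusted p under 0.1, and limma on log2 RPKM called Dusp1, Dusp8 and Dusp14.

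The libraries held 17343945 to 18349331 exon reads in sham and 20019818 to 20358008 in ONC, an intact read pair being counted as 1 read. Exons held 70.9% to 76.6% of the reads on genes in sham and 78.5% to 80.4% in ONC, without overlap (p = 0.1, two-sided, by exact permutation, below which 3 samples against 3 cannot go). Markers of the injured ganglion cells were lower in ONC, where 8 of 10 fell and 1 (Slc17a6) rose, and their summed RPKM was 321 to 339 in ONC and 433 to 453 in sham. Of 8 markers of microglia and macrophages 4 rose (C1qa, C1qb, C1qc and Cd68), with a summed RPKM of 33.2 to 38.5 in ONC and 18.9 to 22.1 in sham. None of 6 Müller glia markers and none of 5 endothelial and mural markers passed the test. Of 5 rod markers 2 rose (Pde6b and Sag), with a summed RPKM of 20300 to 21642 in ONC and 18575 to 19316 in sham, levels in keeping with the labelled tissue. In the edgeR fit, however, these 5 markers had a median log2 fold change of -0.02, beside 0.0099 over all kept genes. Scaled as in RPKM, the median over all kept genes was 0.13, so RPKM was higher in ONC for the typical gene. Of 5 amacrine and horizontal cell markers 1 fell (Calb1), and of 3 blood genes 1 fell (Hba-a1), with a summed RPKM over all 4 listed blood genes of 55.7 to 78.7 in ONC and 75.1 to 170 in sham. In RNA of whole retina, a change in the number of cells of a type and a change in RNA per cell cannot be told apart. The part that these cell types or the exon share had in the results below was not tested.

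Dusp1 lies on chromosome 17 from 26505591 to 26508472 in GRCm38, the build that the positions in the files match, and has 4 exons of 1942 bases in all. Values of single pools are given here in the order of replicates 1, 2 and 3. The sham pools held 358, 358 and 352 exon reads of Dusp1 and the ONC pools 576, 605 and 666. Scaled by TMM (trimmed mean of M values, which takes the typical gene as unchanged) and expressed as CPM, a count relative to library size, the sham pools had 20.5, 19.7 and 20.7 and the ONC pools 29.1, 29.5 and 32.0. The 3 sham pools were thus nearly alike, and every ONC pool lay above every sham pool by more than the range within either group. The log2 fold change was 0.57 with a standard error (SE) of 0.11, and the adjusted p over 13670 genes was 0.00244 in edgeR. This lies just under a fold change of 1.5, which is 0.58 on the log2 scale. The mean RPKM was 7.71 ± 0.307 for sham (SD, n = 3) and 12.5 ± 0.751 for ONC (SD, n = 3). The position of the rise relative to 1.5 depended on the scaling. When the libraries were scaled as in RPKM, by their reads on exons and introns together, the log2 fold change was 0.70 and passed both thresholds, but this scaling also moved the median over all kept genes from 0.0099 to 0.13.

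Promoter windows, taken from the RefSeq annotation of GRCm38.p6 (250 bases before to 50 after the start of a gene), were found for 8 of the 10 genes. The windows of Dusp8, Dusp14 and Dusp16 begin at the start of the gene model in the files, and the RefSeq genes reach 623, 899 and 14435 bases further upstream. They were searched on both strands for the cAMP response element (CRE) TGACGTCA, a site known for transcription factors of the CREB and ATF family, for which Dusp1 is a known target. This element was present in the windows of Dusp1 and Dusp8 and in 1.79% of all 32851 windows. G or C made up 56.4% to 71.6% of the 250 bases upstream in the 8 genes, beside a median of 52.4% over all windows. The shares of all windows given here are not matched for base content. The sequences before the start of both genes are shown because Dusp1 is the gene that changed and Dusp8 is the other one with the full element. Both are written 5′ to 3′ on the minus strand, Dusp1 from chr17:26508473-26508722 and Dusp8 from chr7:142095285-142095534, with the CRE and its first 5 letters, TGACG, in capitals.
Dusp1: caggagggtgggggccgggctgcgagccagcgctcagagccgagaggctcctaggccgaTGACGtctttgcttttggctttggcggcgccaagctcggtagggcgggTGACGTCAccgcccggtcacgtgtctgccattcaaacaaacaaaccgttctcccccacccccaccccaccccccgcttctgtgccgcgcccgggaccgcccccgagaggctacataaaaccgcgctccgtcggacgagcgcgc
Dusp8: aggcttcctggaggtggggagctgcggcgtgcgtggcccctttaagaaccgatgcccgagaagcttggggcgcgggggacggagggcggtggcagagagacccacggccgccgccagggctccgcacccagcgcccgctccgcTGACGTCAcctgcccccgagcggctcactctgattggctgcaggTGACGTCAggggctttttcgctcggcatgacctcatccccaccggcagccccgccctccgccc

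The CRE of Dusp1 occupied bases 143 to 136 before the start, with a further TGACG at bases 191 to 187. Dusp8 held the CRE at bases 107 to 100 and again at bases 63 to 56. The shorter TGACG, which is also a part of the CRE, occurred in 4 of the 8 windows, those of Dusp1, Dusp5, Dusp8 and Dusp16, and in 20.8% of all windows. In Dusp5 it lay on the opposite strand at bases 55 to 51 before the RefSeq start, which is 173 bases upstream of the files' model. In Dusp16 it lay at bases 70 to 66 before the start in the files' model. The AP-1 site (TGACTCA or TGAGTCA, in 5.20% of all windows), the ATF4 element TGATGNAA (3.97%), the ETS site CCGGAAGT (3.89%) and the EGR site GCGTGGGCG (0.612%) were in none of the 8 windows. A match of letters is a description and does not show binding, and a missing match says only that these letters are not in the window.

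In order of level, Dusp8 stood first in both groups and Spry4 last. In sham the mean RPKM was 26.5 for Dusp8, 15.3 for Spry2, 12.6 for Dusp4, 10.8 for Dusp14, 7.71 for Dusp1, 5.48 for Dusp5, 4.53 for Dusp16, 4.52 for Dusp10, 3.56 for Dusp6 and 2.12 for Spry4. RPKM is divided by exon length and so permits this comparison between genes. The 3 sham values overlapped between Dusp4 and Dusp14, between Dusp16 and Dusp10, and between Dusp10 and Dusp6, whereas the other neighbours in the order did not overlap. Against a median sham RPKM of 7.04 over all kept genes, Dusp8 was higher than 85.3% of them and Spry4 higher than 23.7%. In ONC the mean RPKM of Dusp1 was 12.5 and its values overlapped those of Dusp14 (13.6) and Dusp4 (12.1), both of which had lain above it in sham without overlap. From Dusp16 to Dusp10, the 4 genes Dusp16, Dusp5, Dusp6 and Dusp10 followed in ONC with means between 4.50 and 5.08, each overlapping the next.

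**Figure D1:**
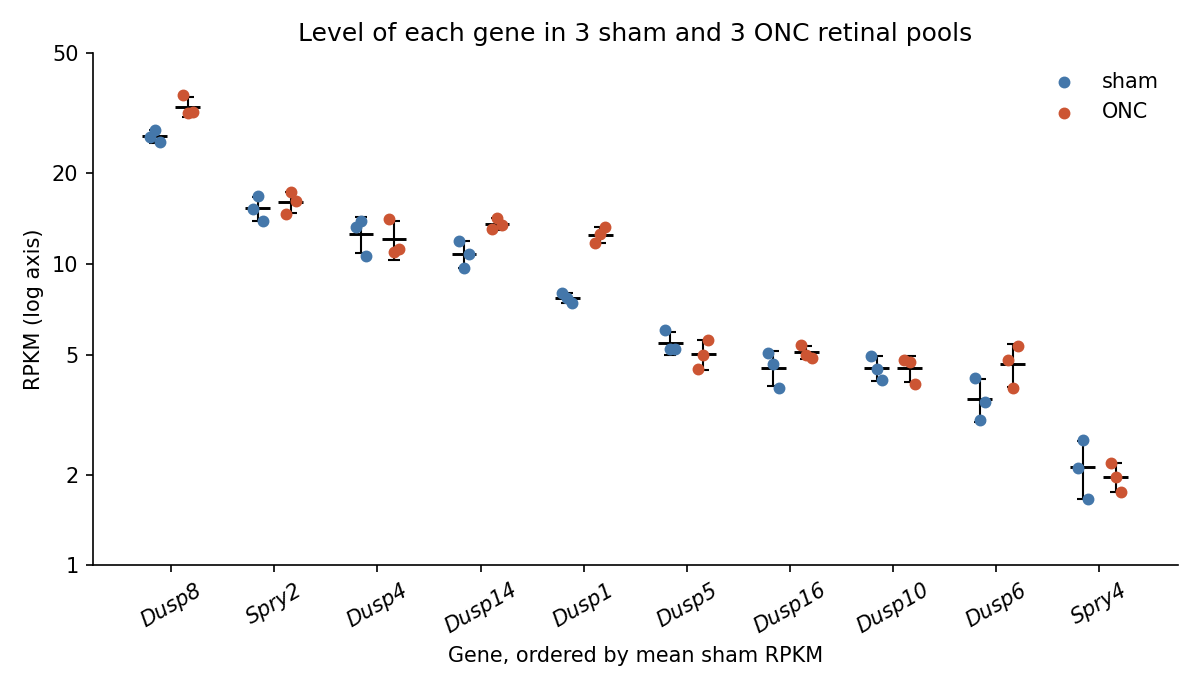
RPKM of the 10 genes on a log axis, in order of their mean sham level, with 1 point for each of the 3 sham and 3 ONC pools, the mean as a line and the SD as a bar. Dusp1 goes from a mean of 7.71 in sham to 12.5 in ONC with clear separation, and Dusp8 and Dusp14 are the other genes whose ONC values all lie above the sham values.

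Dusp8, Dusp10 and Dusp16 encode phosphatases that prefer JNK and p38 over ERK. Dusp8 lies on chromosome 7 from 142079487 to 142095284 and was the best covered of the 10, the sham pools holding 2924, 3209 and 2981 exon reads and the ONC pools 4410, 3788 and 3984. After TMM scaling the sham pools had 167, 176 and 176 CPM and the ONC pools 223, 185 and 192. All ONC values lay above all sham values, and ONC replicate 1 stood well above the other ONC pools. The log2 fold change was 0.21 (SE 0.07, adjusted p = 0.109 by edgeR), with a 95% interval of 1.04-fold to 1.27-fold, so that a change of 1.5-fold lies outside the interval. Without ONC replicate 1 the value was 0.12 (adjusted p = 0.177 by edgeR). The value from all samples missed the threshold narrowly and crossed it with the scaling of RPKM (0.33, adjusted p = 0.00674, edgeR). Dusp10, on chromosome 1 from 184034461 to 184075636, had 273 to 329 exon reads per sample, a log2 fold change of -0.13 and overlapping groups (SE 0.13, adjusted p = 0.675 by edgeR). Dusp16, on chromosome 6 from 134715473 to 134792628, ranged from 484 to 695 exon reads, and its groups overlapped, with a log2 fold change of 0.05 (SE 0.10, adjusted p = 0.852 by edgeR). Its 95% interval ran from 0.892-fold to 1.20-fold.

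Dusp5 and Dusp6 encode phosphatases of ERK, the first in the nucleus and the second in the cytoplasm, and both are known as targets of the ERK pathway. Dusp6, on chromosome 10 from 99263231 to 99267489, had 15.3, 11.2 and 14.1 CPM after TMM scaling in the sham pools and 17.1, 13.1 and 18.7 in the ONC pools. ONC replicates 1 and 3 lay above all sham pools, and ONC replicate 2 lay among them. Its log2 fold change was 0.27 (SE 0.16, adjusted p = 0.402 by edgeR), with a 95% interval from 0.962-fold to 1.51-fold. Dusp5, on chromosome 19 from 53529318 to 53541322, had the fewest exon reads of the group, 160, 144 and 147 in sham and 131, 143 and 168 in ONC. Its log2 fold change of -0.25 (SE 0.18, adjusted p = 0.514 by edgeR) had an interval from 0.653-fold to 1.09-fold. The exon model that the files use for Dusp5 has 1155 bases, and the RefSeq gene extends 173 bases before and 487 bases beyond it, so the reads of those ends were not counted on Dusp5.

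Dusp4 encodes a nuclear phosphatase related to that of Dusp1, and Dusp14 a small phosphatase of the atypical class without the MAP kinase binding domain. Dusp4, on chromosome 8 from 34807610 to 34819894, had 42.44, 44.38 and 37.04 CPM after TMM scaling in the sham pools and 43.67, 32.22 and 33.87 in the ONC pools. ONC replicates 2 and 3 lay below every sham pool and ONC replicate 1 was close to the highest. The log2 fold change was -0.18 (SE 0.11, adjusted p = 0.457 by edgeR). Without ONC replicate 1 it was -0.32 and passed the threshold (adjusted p = 0.0363, edgeR), a call that thus rested on leaving out that pool. Dusp14, on chromosome 11 from 84048045 to 84068357, had 22.7, 18.5 and 22.4 CPM in the sham pools and 24.1, 24.9 and 24.2 in the ONC pools. Its groups did not overlap, but the log2 fold change of 0.20 was within 2 standard errors (0.12) of 0 (adjusted p = 0.396, edgeR).

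Neither Sprouty passed the threshold, and the estimate was less precise for Spry4 than for Spry2. Spry2, on chromosome 14 from 105891947 to 105896819, had 41.8, 46.0 and 41.8 CPM after TMM scaling in the sham pools and 39.1, 43.9 and 41.9 in the ONC pools. Its log2 fold change was -0.05 (SE 0.09, adjusted p = 0.814 by edgeR), and the 95% interval of 0.85-fold to 1.09-fold does not include a change of 1.5-fold in either direction. Its sign turned with the scaling of RPKM, to 0.07. Spry4, on chromosome 18 from 38586265 to 38601268, had 222, 286 and 187 exon reads in sham and 254, 225 and 209 in ONC. Its log2 fold change was -0.22 (SE 0.16, adjusted p = 0.517 by edgeR), with an interval from 0.68-fold to 1.08-fold.

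**Figure D2:**
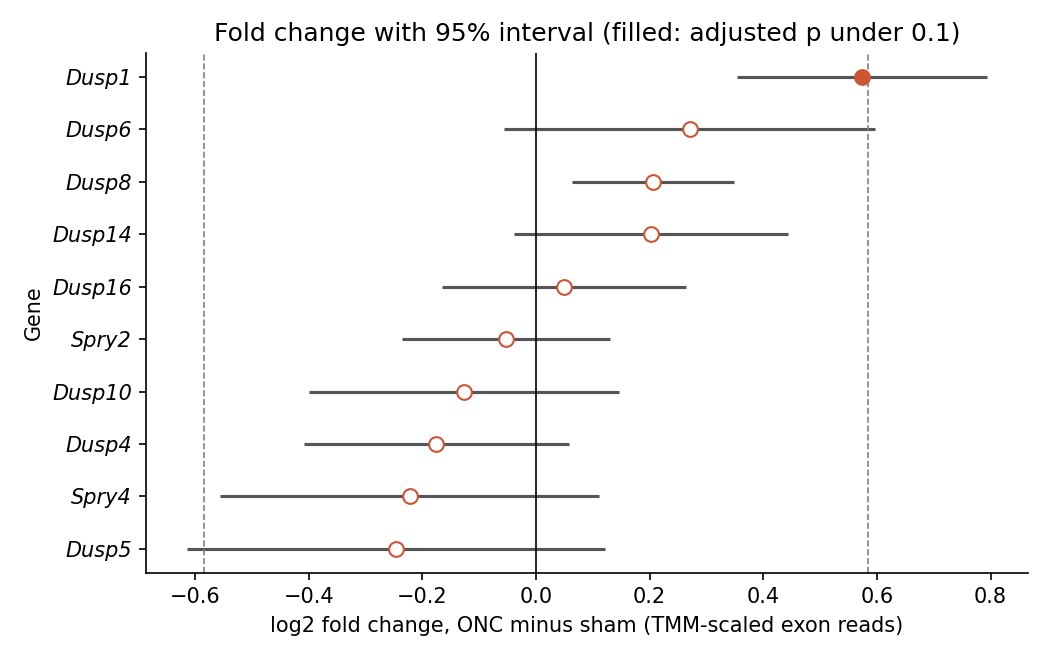
Log2 fold change of ONC over sham for each of the 10 genes from TMM-scaled exon reads, with 95% intervals, where filled points have an adjusted p under 0.1 in edgeR and dashed lines mark a fold change of 1.5. Dusp1 at 0.57 is the filled point, just left of the dashed line, and the other 9 range from -0.25 to 0.27.

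As a list, the 10 genes had 5 log2 fold changes above 0 and 5 below it, with a median of -0.0015 beside 0.0099 over all 13670 kept genes. With the scaling of RPKM, 6 were above 0, as were 76.7% of all kept genes, and the median was 0.12 beside 0.13. In 3 of the 10 (Dusp1, Dusp8 and Dusp14) every ONC value lay above every sham value after TMM scaling, as in 11.0% of all kept genes, and in none did every ONC value lie below, as in 10.8% of all. Across 18 other settings for scaling, filter, read class, test and left-out samples, Dusp1 was above 0 in all and passed the adjusted p threshold in 17, and it passed the fold change threshold also in 8. Its log2 fold change ranged from 0.52 without ONC replicate 3 to 0.70 with the scaling of RPKM.

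**Figure D3:**
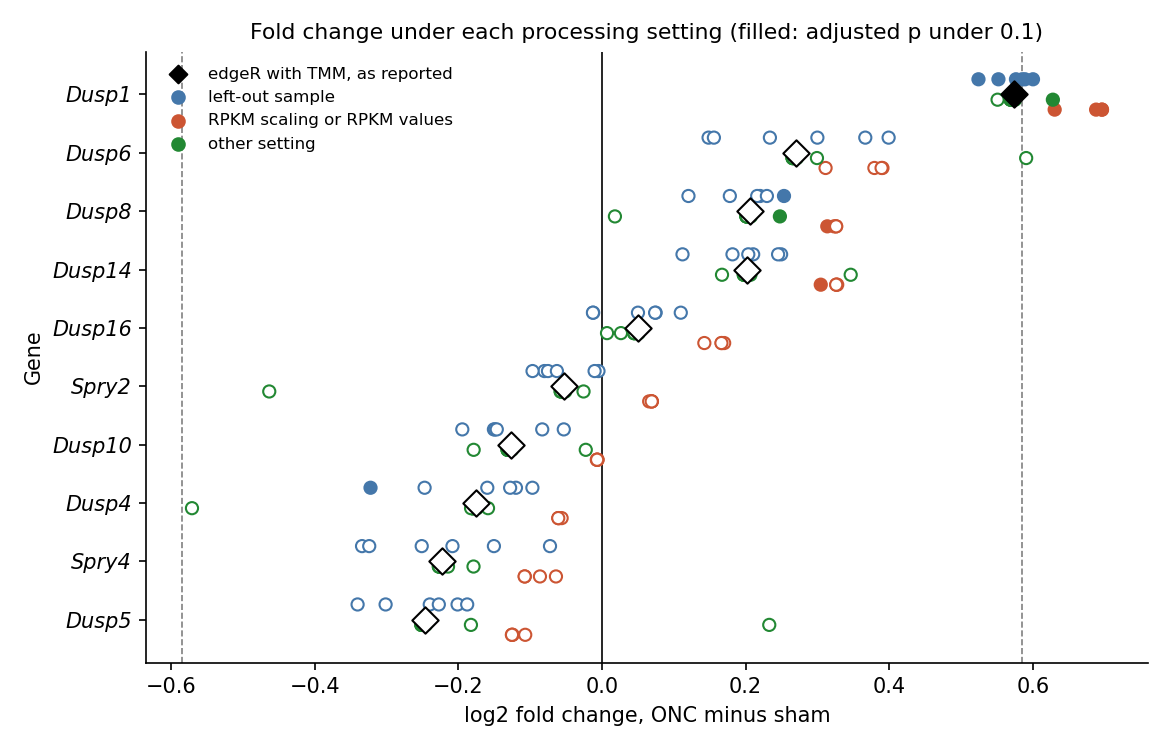
Log2 fold change of each of the 10 genes under the reported setting (diamonds) and under the alternatives (circles), coloured by kind of alternative, where filled symbols have an adjusted p under 0.1 and dashed lines mark a fold change of 1.5. Dusp1 stays between 0.52 and 0.70, and the settings that use RPKM lie to the right of the diamond for all 10 genes.

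The files also count reads that cross exon junctions, which come from spliced RNA, and reads on the whole gene, from which intron reads were obtained by subtraction. These are other readings of the same libraries and not independent samples. On junction reads, Dusp1 had 94, 53 and 97 in the sham pools and 116, 125 and 176 in the ONC pools. All ONC counts were higher than all sham counts before scaling, although the ONC libraries also held more exon reads. The log2 fold change of 0.55 was close to that of all exon reads, with a larger standard error of 0.24 (adjusted p = 0.316, edgeR). Junction reads of Dusp4 gave a log2 fold change of -0.57 (SE 0.18, adjusted p = 0.126 by edgeR), with 191, 178 and 149 in sham and 163, 114 and 126 in ONC. ONC replicate 1 lay within the sham range in these counts, which are not scaled for the larger number of exon reads in ONC libraries. Scaled junction values of single pools were not compared. For Dusp8 the junction reads gave 0.02 (SE 0.09), below the 0.21 of all exon reads, and for Dusp5 the direction turned, to 0.23 (SE 0.25). Of the 9 genes with enough junction reads to test, none passed an adjusted p under 0.1 in edgeR, beside 1.23% called higher and 1.77% called lower among all genes tested on such reads, and 2 (Dusp1 and Dusp4) had an unadjusted p under 0.05, beside 12.9% of all.

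Intron reads were few in 3 of the genes. Dusp1 had 1, 0 and 6 in sham and 9, 6 and 12 in ONC, Spry4 had 0 to 4 in each sample and Dusp6 had 0 to 11, and these genes were not tested. Every ONC count of Dusp1 was at or above the highest sham count, and at such numbers a difference could not be measured with any precision. Of the 7 genes tested, none passed an adjusted p under 0.1 in edgeR, against 2.70% of all genes tested on intron reads, and none had an unadjusted p under 0.05, beside 17.2% of all. The log2 fold changes ranged from -0.54 for Dusp4 (SE 0.45) to 0.34 for Dusp8 (SE 0.23). Sham pools were uneven for Dusp16, with 51, 44 and 146 intron reads, and for Dusp10, with 65, 23 and 109. Exons held the larger part of the reads in all 10 genes, from 77.5% for Dusp5 to 99.0% for Spry4 in ONC.

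**Figure D4:**
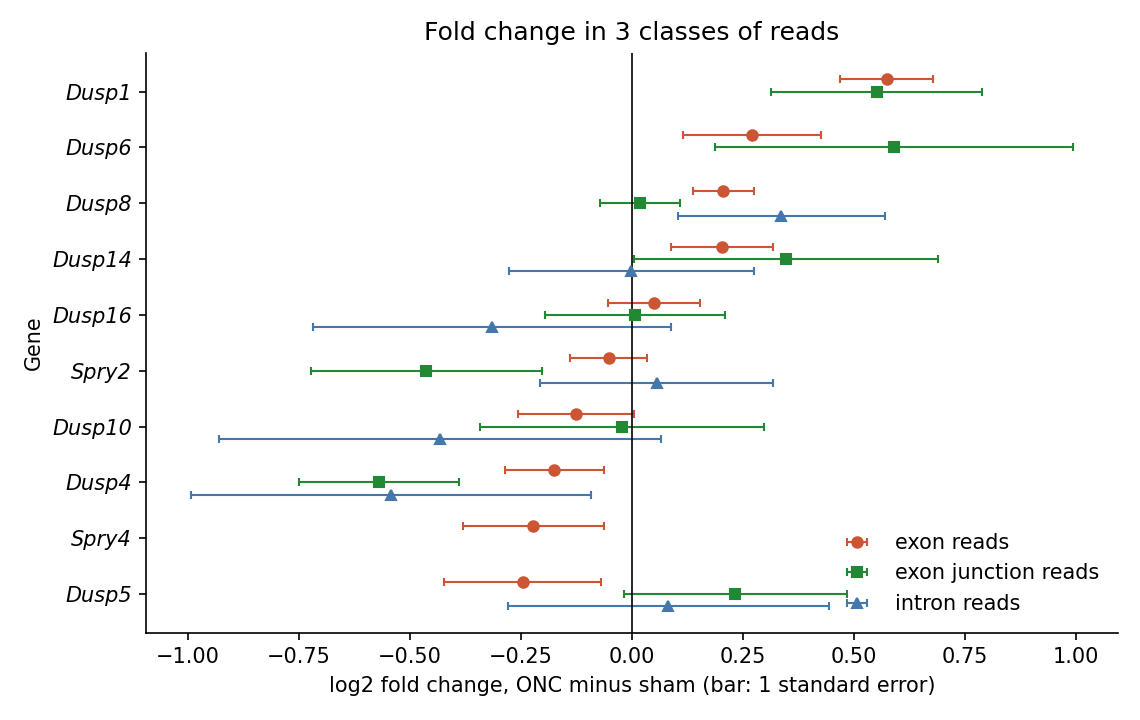
Log2 fold change of ONC over sham from exon reads, junction reads and intron reads for the 10 genes, with bars of 1 standard error, where a missing symbol means too few reads to test. For Dusp1 exon and junction reads gave 0.57 and 0.55, while for Dusp8 they gave 0.21 and 0.02.

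The related phosphatases and Sproutys outside the 10 were mostly without a call. Of the remaining MKPs, Dusp7, an ERK phosphatase, stood at 16.5 ± 1.45 RPKM in the sham pools and 16.7 ± 2.18 RPKM in the ONC pools (SD, n = 3 each), with TMM-scaled reads giving no call (log2 fold change -0.10, SE 0.09, adjusted p = 0.614, edgeR). Dusp2 and Dusp9 did not pass the filter, with mean RPKM values under 0.1 in both groups. Of 10 other DUSPs of the atypical class that passed the filter, none was called, beside 6.09% of all kept genes, and the median log2 fold change was -0.02. With the scaling of RPKM 1 was called higher and the median was 0.10. Over all kept genes that scaling gave a median of 0.13, with 1507 of 13670 called higher. Spred1, which like the Sproutys restrains Ras and ERK, was the only call among the 4 further Sprouty and Spred genes measured. It fell by 0.32 on the log2 scale (SE 0.09, adjusted p = 0.0555 by edgeR), but with the scaling of RPKM the value was -0.20 and the call was lost (adjusted p = 0.191 by edgeR). The call of Spred1 held in 9 of 17 other settings, that scaling included. Its mean RPKM was 19.7 ± 2.64 for sham and 17.1 ± 1.81 for ONC (SD, n = 3 each), with overlapping groups, whereas after TMM scaling the sham pools had 75.3, 89.0 and 75.0 CPM and the ONC pools 73.3, 59.4 and 59.0, without overlap. Spry1 (-0.17), Spred2 (0.06) and Spred3 (0.15) did not pass, and Spry3 was not analysed here.

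The kinases that these genes act on were described by lists of pathway genes. Over all kept genes 2.38% were called higher and 3.72% lower in ONC, the background for the counts that follow. Of 22 genes of the ERK cascade, from adaptors to kinases, none rose and 2 fell, with a median log2 fold change of -0.05 beside 0.0099 for all kept genes. These were Nf1, which switches Ras off (-0.46, SE 0.09, adjusted p = 0.00652, edgeR), and Ksr2, a scaffold of the cascade (-0.68, SE 0.18, adjusted p = 0.0318, edgeR). Of 14 kinases of the JNK and p38 branches, 1 rose and 2 fell, with a median of -0.0036. Mapk11, which encodes a form of p38, rose by 0.44 (SE 0.13, adjusted p = 0.056 by edgeR). Mapk10, the JNK of neurons, fell by 0.35 on the log2 scale (SE 0.06, adjusted p = 0.00199 by edgeR), and Map3k13, a kinase upstream of JNK, fell by 0.26 (SE 0.08, adjusted p = 0.0829 by edgeR). With the scaling of RPKM the call of Map3k13 was lost (-0.14, adjusted p = 0.369, edgeR), those of Nf1, Ksr2, Mapk10 and Mapk11 were not, 1 further kinase of the JNK and p38 list was called higher, and the median of the ERK cascade list was 0.08 against 0.13 for all kept genes. Among all kept genes 1507 of 13670 were called higher with that scaling. Over 17 other settings, that scaling included, the call held in 15 for Mapk10, 14 for Nf1 and 13 for Mapk11. For Ksr2 it held in 11 and for Map3k13 in 6.

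Genes transcribed in response to ERK gave 1 call among the 13 of 15 that passed the filter, close to the 6.09% called among all kept genes. Egr1, an immediate early transcription factor, rose by 1.05 on the log2 scale (SE 0.11, adjusted p = 7.34e-06 by edgeR). Its mean RPKM was 4.63 ± 0.815 for sham and 10.4 ± 0.693 for ONC (SD, n = 3 each). The list had a median of 0.11, with 10 of the 13 above 0, beside 7147 of 13670 kept genes. With the scaling of RPKM 2 of the 13 were called higher, 12 were above 0 and the median was 0.23. Over all kept genes that scaling put 76.7% above 0, with a median of 0.13 and 1507 of 13670 called higher.

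**Figure D5:**
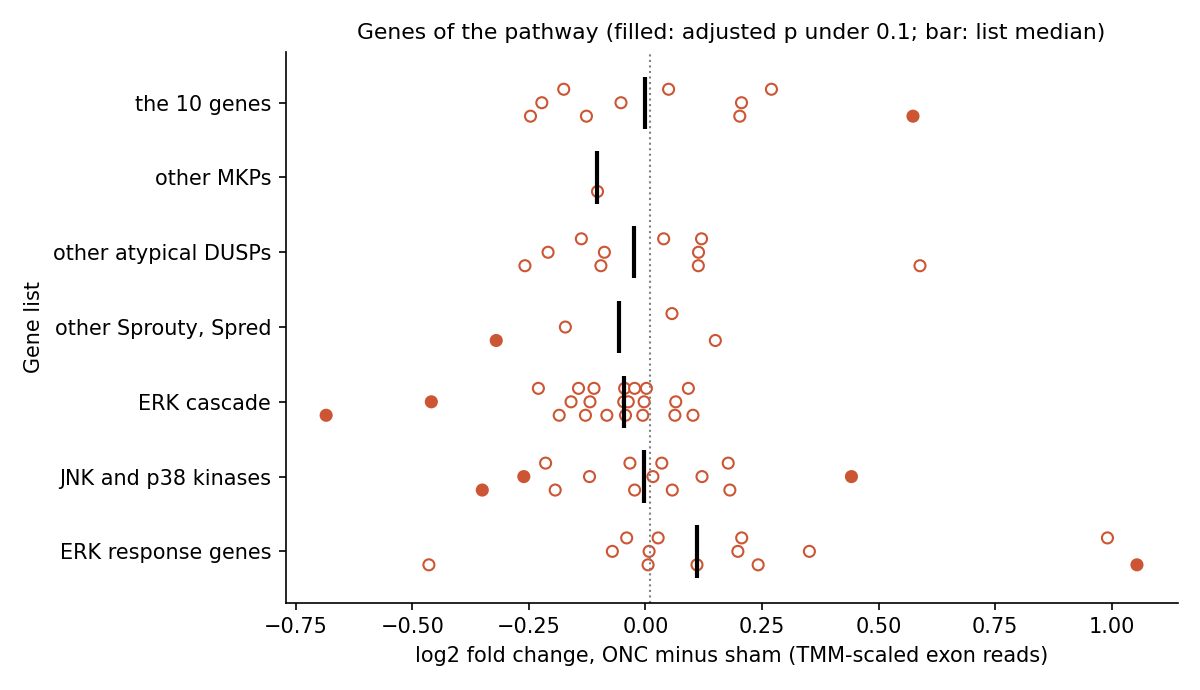
Log2 fold change of ONC over sham for each measured gene of the 10 genes and of 6 lists of related genes, where filled points have an adjusted p under 0.1 in edgeR, black bars are list medians and the dotted line is the median of all kept genes. The filled points are Dusp1 at 0.57, Spred1, Nf1, Ksr2, Mapk10, Map3k13, Mapk11 and, farthest right, Egr1 at 1.05.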

How the data were processed

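RNA-seq libraries of 6 retinal pools (3 ONC, 3 sham) were grouped by the treatment label. The authors mapped 100 bp read pairs with CLC Genomics Workbench 6.0.1, allowing 2 mismatches, and deposited unnormalized counts per gene. The authors also deposited RPKM, whose divisor equals all reads on genes, introns included. The study and the labels name mm9, yet 99.9% of the 29908 genes matched by symbol overlap their place in RefSeq GRCm38.p6, so positions are given in that build.

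Exon reads of 13670 genes were tested with edgeR 4.0.16 (TMM, glmQLFit, glmQLFTest; R 4.3.3), the model holding the group alone, and p-values were adjusted by Benjamini-Hochberg across every gene in the fit. A standard error is the log2 fold change divided by the square root of F, and intervals use its t quantile. Intron reads are total gene reads minus exon reads (13391 genes after filterByExpr). Whether counting used strand is not given in the sources used here, and 1 of the 10 genes, Dusp4, overlaps another gene model, which had no exon reads. All exon reads of the 10 genes were uniquely mapped. P-values measure the spread between pools. Replicates of a group differed by more than sampling noise (chi-square per degree of freedom from 4.54 to 13.7).

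The fits were also run on simulated counts with known changes and the same spread for all genes. That setting is simpler than these data, and no result here rests on it. The 10 genes, lists and tests were chosen with earlier results of these data known. All 10 genes are named, together with the list genes of adjusted p under 0.1 and all other MKPs, Sproutys and Spreds. Alternatives were DESeq2 1.42.0 (size factors and Wald test), limma 3.58.1 on log2(RPKM + 0.1) and log2(RPKM + 1), RPKM scaling, the study's test per gene on RPKM with q-values, filters, read classes, the replicate number as a block, and leaving out each sample. Junction reads were added after the data were seen. Figures used matplotlib 3.10.9 with Python 3.11.15.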

Additional observations from a re-analysis of the deposited data

How the results depend on the processing

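The number of genes called on exon reads was 833 (325 higher, 508 lower). It was 1730 with the scaling of RPKM (1507 higher, 223 lower), 1121 and 1158 with limma on RPKM (978 and 1011 higher), 775 with the per-gene test on RPKM (655 higher) and 367 on junction reads, and 373 to 2049 when a sample was left out (373, 397, 2049, 435 and 454 without sham replicates 2 and 3 and ONC replicates 1, 2 and 3). Among the 10 genes, 1 was called, and 2 were with the scaling of RPKM, without the RPKM filter and on total gene reads (Dusp1 and Dusp8), 3 with limma under both pseudocounts (Dusp1, Dusp8 and Dusp14) and 0 on junction reads. When a sample was left out the number was 1 to 2, the second being Dusp4 without ONC replicate 1 and Dusp8 without ONC replicate 2 (0.25, adjusted p = 0.0681, edgeR). With a fold change above 1.5 as well, none was called, but 1 (Dusp1) was with the scaling of RPKM, limma under both pseudocounts, the per-gene test on RPKM and total gene reads, and 0 to 1 with a sample left out, the call being made without sham replicate 3, ONC replicate 1 or ONC replicate 2. The cause of these differences was not tested. With the scaling of RPKM the median log2 fold change over all kept genes moved from 0.0099 to 0.13.

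With a sample left out, exon log2 fold changes ranged from -0.32 to -0.10 for Dusp4, -0.34 to -0.19 for Dusp5, 0.15 to 0.40 for Dusp6, 0.12 to 0.25 for Dusp8, -0.19 to -0.05 for Dusp10, 0.11 to 0.25 for Dusp14, -0.10 to -0.0048 for Spry2 and -0.33 to -0.07 for Spry4, the end nearest 0 for Dusp6, Dusp14, Spry2 and Spry4 being without sham replicate 2. Signs turned for Spry2 (0.0693 with RPKM scaling and with the per-gene test, 0.0696 and 0.0658 with limma), for Dusp5 on junction reads (0.23), and for Dusp16 with a sample left out (-0.0125 to 0.11). On intron reads 361 genes were called, 1297 when scaled as the exon reads, and 0 to 915 with a sample left out (915, 0, 81, 0 and 1 without sham replicates 1, 2 and 3 and ONC replicates 2 and 3), while none of the 7 tested genes was called in any of the 11 alternatives. Intron signs turned for Dusp5 (-0.14) and Spry2 (-0.19) when scaled as the exon reads, for Dusp14 on unique reads (0.0058), and with a sample left out for Dusp5 (-0.0353 to 0.31), Spry2 (-0.13 to 0.24), Dusp14 (-0.22 to 0.18), Dusp10 (-1.08 to 0.0687) and Dusp16 (-0.61 to 0.36). The deviations of same-numbered ONC and sham samples had correlations of -0.05, -0.03 and 0.0026, which gave no sign that the numbers pair the samples. Such values cannot show that the samples were not handled in pairs. With the replicate number as a block, 728 genes were called on exon reads and 389 on intron reads, Dusp1 had a log2 fold change of 0.57 (adjusted p = 0.00528, edgeR), and no call among the 10 genes changed. Counts of 131 to 168 for Dusp5, and intron counts under 20 for Dusp1, Dusp6 and Spry4, limit precision there.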
